A study of Mus musculus with 34 samples.

Results

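Transport of amino acids out of the tubular fluid was examined in the kidneys of mice with polycystic kidney disease, through the mRNA of 10 transporter genes: *Slc6a18*, *Slc6a19*, *Slc6a20b*, *Slc3a1*, *Slc3a2*, *Slc7a7*, *Slc7a8*, *Slc7a9*, *Slc7a13* and *Slc1a1*. They were chosen by name from the 23509 genes of the count tables, and all 10 passed the filter on low counts that left 15644 genes for testing. Polyadenylated RNA of whole kidney was sequenced in 34 C57BL6 mice at postnatal day 28 (P28). *Pkd2*-KO mice, written Pdk2KO in the labels, carried floxed *Pkd2* alleles and a Cre recombinase under the *Pkhd1* promoter, which is active in tubules, so cells without Cre kept the gene. They received subcutaneous PBS (n = 11) or RGLS4326 at 20 mg per kg body weight (n = 11) at P10, P11, P12 and P19. Untreated non-transgenic mice of the same strain and age, labelled wildtype (UNT, n = 12), were neither injected nor transgenic, so PBS vs UNT compares genotype and injection together. Sex was not given in the labels.

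The proximal tubule takes back nearly all filtered amino acids. Sodium-coupled carriers and exchangers in the apical brush border bring them into the cell, and exchangers in the basolateral membrane release them to the blood. Some of these exchangers are dimers of a glycoprotein heavy chain, which brings the complex to the membrane, and a light chain, which forms the pore: the heavy chain rBAT (*Slc3a1*) is apical and the heavy chain CD98hc (*Slc3a2*) basolateral in these cells. Inherited loss of *SLC3A1* or *SLC7A9* in people causes cystinuria, loss of *SLC7A7* lysinuric protein intolerance and loss of *SLC6A19* Hartnup disorder.

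RGLS4326 is a short, chemically modified oligonucleotide that pairs with the seed of the microRNA miR-17, the bases through which a microRNA finds its targets. The seed is shown here because it sets what a direct target of the drug's microRNA would carry. In the mature mouse sequence of RefSeq (GRCm38.p6, chr14:115043684-115043706, plus strand) capitals mark bases 2 to 8.
mmu-miR-17-5p: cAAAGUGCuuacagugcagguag
Its 7-base matches on an mRNA are GCACTTT and CACTTTA, which overlap in the 8-base match GCACTTTA. None of the 10 transporters held a match in its longest annotated 3′ untranslated region (3′UTR), which ranged from 141 bases in *Slc7a9* to 4193 bases in *Slc6a20b*. Among the 14193 tested genes with an annotated 3′UTR, whose median length was 1150 bases, 3011 (21.2%) held one.

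On GRCm38 the GENCODE M21 annotation places the Slc6 carriers *Slc6a18* at chr13:73661752-73678023 (minus strand), *Slc6a19* at chr13:73679745-73704865 (minus strand) and *Slc6a20b* at chr9:123590800-123632565 (minus strand). The heavy chains are *Slc3a1* at chr17:85028376-85064236 (plus strand) and *Slc3a2* at chr19:8706882-8723369 (minus strand). The light chains are *Slc7a7* at chr14:54369442-54417780 (minus strand), *Slc7a8* at chr14:54722209-54781946 (minus strand), *Slc7a9* at chr7:35448796-35466036 (plus strand) and *Slc7a13* at chr4:19818725-19842218 (plus strand), and the glutamate carrier is *Slc1a1* at chr19:28835049-28913960 (plus strand). Reads were counted over annotated exons, from 2141 bases for *Slc7a13* to 8538 bases for *Slc6a20b*.

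Each library held between 17603122 and 54981992 reads in genes, and the lowest count of a transporter in any library was 31, for *Slc7a13*. Levels are given as CPM, read counts relative to library size after TMM scaling. Unless a permutation test is named, the adjusted p comes from edgeR's quasi-likelihood test (two-sided, Benjamini-Hochberg over all 15644 genes), and a gene was called when it was under 0.05. *Pkd2* itself ranged from 219.6 to 338 CPM (median 274) in UNT, from 98.0 to 214 (median 165) in PBS-treated and from 170.0 to 237 (median 210.3) in RGLS4326-treated mice. The share of all counted reads that fell in no gene ranged from 9.84 to 11.3% in UNT, 5.18 to 8.99% in PBS-treated and 4.94 to 12.0% in RGLS4326-treated libraries, and moved with the groups. The library numbers in the names of the count tables restart, which splits the libraries into 3 numbering sets of 3 or 4 mice per group. The labels do not say which mice were littermates.

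All 10 transporters were lower in PBS-treated *Pkd2*-KO kidneys than in UNT kidneys. The largest difference was that of *Slc7a13*, at 13.4-fold, and the smallest that of *Slc3a2*, at 1.57-fold. Each of the 10 was called, and for each every PBS-treated mouse lay below every UNT mouse. Of all tested genes, 82.1% were called in this comparison, 39.0% as lower, and 19.8% were lower with no overlap between the groups. The median log2 fold change was -1.79 over the 10 transporters and 0.04 over all tested genes. In RNA of a whole kidney, fewer tubule cells and less of an mRNA per tubule cell cannot be told apart.

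**Figure D1:**
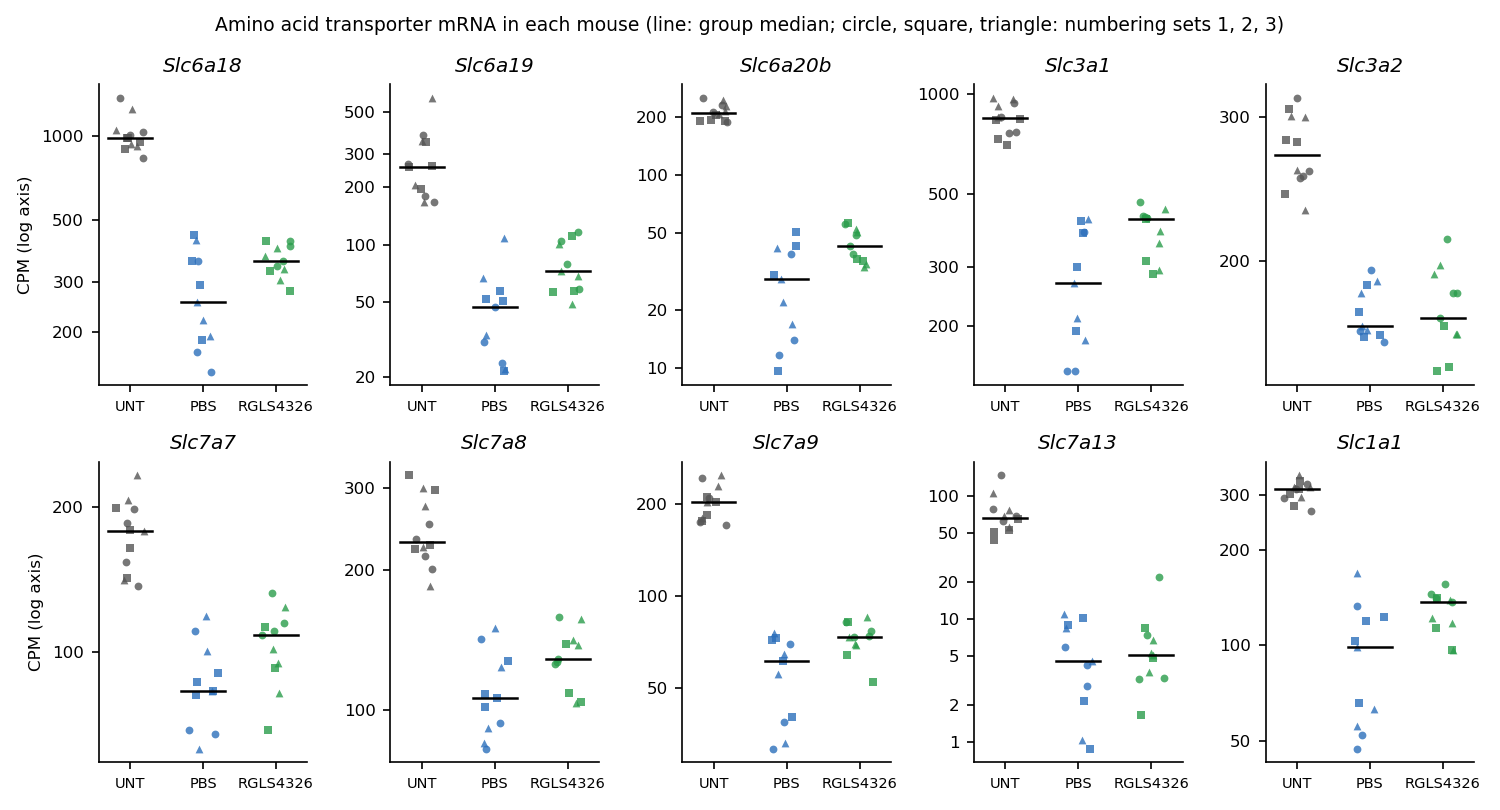
Level of each transporter (CPM, log axis) in every mouse of the UNT, PBS and RGLS4326 groups, with a line at the group median and a marker shape for each of the 3 numbering sets. In all 10 panels the 12 UNT mice sit above every *Pkd2*-KO mouse, and the PBS group reaches lower than the RGLS4326 group for every gene other than *Slc3a2*.

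Among the apical carriers of neutral amino acids, *Slc6a18* (B0AT3), which favours small neutral amino acids such as glycine, was the most abundant. It ranged from 829.6 to 1359 CPM with a median of 981 in UNT mice, from 145 to 444 with a median of 256 in PBS-treated mice and from 279 to 423 with a median of 358 in RGLS4326-treated mice. Both groups of *Pkd2*-KO mice thus lay far under the lowest UNT mouse, while the RGLS4326 values lay inside the range of the PBS values. The log2 fold change was -1.87 ± 0.15 (SE) in PBS vs UNT (adjusted p = 5.3e-14) and 0.38 ± 0.14 in RGLS4326 vs PBS (adjusted p = 0.0418). All 11 RGLS4326-treated mice were above the PBS mean and none was above the highest PBS mouse.

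*Slc6a19* encodes B0AT1, the main apical carrier of neutral amino acids, and lies next to *Slc6a18* on chromosome 13 with 1721 bases between the annotated genes. Its level spread widely within each group: from 167 to 590.5 CPM with a median of 257 in UNT mice, from 21.4 to 109 with a median of 47.1 in PBS-treated mice and from 48.6 to 117 with a median of 72.8 in RGLS4326-treated mice. Over all mice its difference between RGLS4326 and PBS was the largest of the 10, with a log2 fold change of 0.77 ± 0.24 (adjusted p = 0.0176) after -2.59 ± 0.25 in PBS vs UNT (adjusted p = 1.5e-11). In numbering sets 1, 2 and 3 alone the former was 1.42, 0.74 and 0.33. In set 3 it was exceeded by *Slc6a20b* (0.64), *Slc3a1* (0.46), *Slc7a9* (0.38) and *Slc6a18* (0.37). In the RGLS4326 group 2 of 11 mice exceeded the highest PBS mouse.

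*Slc6a20b* belongs to the same family, in which *Slc6a20a* carries proline and other imino acids. It ranged from 190.1 to 251 CPM with a median of 212 in UNT mice, from 9.57 to 50.8 with a median of 29.1 in PBS-treated mice and from 33.5 to 56.8 with a median of 42.7 in RGLS4326-treated mice. UNT mice were close to each other, PBS-treated mice were spread over a wide range and RGLS4326-treated mice filled its upper end. Its log2 fold change was -2.93 ± 0.21 in PBS vs UNT (adjusted p = 2.2e-15) and 0.66 ± 0.20 in RGLS4326 vs PBS (adjusted p = 0.0128), the smallest adjusted p of the 10 in the latter.

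The count of *Slc6a20b* is uncertain in 2 ways. The coding sequences of *Slc6a20b* and *Slc6a20a* were 91.4% identical with a longest identical run of 321 bases, and 5.7% of the 75-base windows of the *Slc6a20b* transcript also occurred in *Slc6a20a*, from which uniquely mapped reads could not come. Its exons also overlapped those of *Sacm1l* on the opposite strand over 1800 bases, and the mean of *Sacm1l* was 145 CPM for UNT, 91.1 for PBS and 110.5 CPM for RGLS4326. *Slc6a20a* moved the same way, with log2 fold changes of -0.92 ± 0.11 in PBS vs UNT and 0.40 ± 0.11 in RGLS4326 vs PBS (adjusted p = 0.00925).

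*Slc3a1*, the rBAT heavy chain of the cystine and dibasic amino acid exchanger, ranged from 701 to 971 CPM with a median of 844 in UNT mice, from 145 to 419.7 with a median of 269.9 in PBS-treated mice and from 286 to 471 with a median of 419.3 in RGLS4326-treated mice. The median RGLS4326-treated mouse thus stood at the level of the highest PBS-treated mouse, and 5 of 11 exceeded it. The log2 fold change was -1.61 ± 0.15 in PBS vs UNT (adjusted p = 7.8e-12) and 0.48 ± 0.15 in RGLS4326 vs PBS (adjusted p = 0.0174). Exons of *Slc3a1* overlapped 601 bases of *Prepl* on the opposite strand, and *Prepl* stayed between group means of 43.5 and 46.5 CPM.

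*Slc7a9*, the b0,+AT light chain that pairs with rBAT, ranged from 170.1 to 247 CPM with a median of 203 in UNT mice, from 31.7 to 75.8 with a median of 61.2 in PBS-treated mice and from 52.6 to 85.6 with a median of 73.7 in RGLS4326-treated mice. The light chain followed the pattern of its heavy chain, with log2 fold changes of -1.85 ± 0.13 in PBS vs UNT (adjusted p = 1.1e-15) and 0.38 ± 0.13 in RGLS4326 vs PBS (adjusted p = 0.02). In the RGLS4326 group 4 of 11 mice exceeded the highest PBS mouse.

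*Slc7a13* (AGT1), the other light chain of rBAT, which carries aspartate, glutamate and cystine in the last segment of the proximal tubule, was lost further than any other of the 10. It ranged from 43.4 to 147 CPM with a median of 66.2 in UNT mice, from 0.873 to 10.9 with a median of 4.54 in PBS-treated mice and from 1.64 to 22.1 with a median of 5.07 in RGLS4326-treated mice. The medians of both *Pkd2*-KO groups were close, and a single RGLS4326-treated mouse (replicate 3) stood above the highest PBS mouse. The log2 fold change was -3.74 ± 0.38 in PBS vs UNT (adjusted p = 3.6e-11) and 0.27 ± 0.36 in RGLS4326 vs PBS (adjusted p = 0.565), with a 95% interval from -0.46 to 1.01 that holds both a fall and a doubling. Without replicate 3 of the RGLS4326 group the latter turned to -0.13.

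*Slc1a1*, the apical glutamate and aspartate carrier EAAC1, had the narrowest spread in UNT mice. It ranged from 266 to 345 CPM with a median of 314 in UNT mice, from 47.1 to 169 with a median of 98.7 in PBS-treated mice and from 96.6 to 156 with a median of 137 in RGLS4326-treated mice. PBS-treated mice spread over more than the whole RGLS4326 range, and the RGLS4326-treated mice lacked the low values. The log2 fold change was -1.72 ± 0.16 in PBS vs UNT (adjusted p = 2.6e-12) and 0.45 ± 0.16 in RGLS4326 vs PBS (adjusted p = 0.0262). Its exons overlapped 2631 bases of *4430402I18Rik* on the opposite strand, a transcript of at most 6.72 CPM in any group mean.

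Of the basolateral genes, *Slc7a7*, the y+LAT1 light chain that releases dibasic amino acids, ranged from 137 to 232 CPM with a median of 178 in UNT mice, from 63.0 to 119 with a median of 83.1 in PBS-treated mice and from 69.0 to 132 with a median of 108 in RGLS4326-treated mice. *Slc7a8*, the LAT2 light chain for neutral amino acids, ranged from 185 to 319 CPM with a median of 229 in UNT mice, from 82.5 to 149.8 with a median of 106 in PBS-treated mice and from 103 to 159 with a median of 128 in RGLS4326-treated mice. Both were lower in PBS-treated than in UNT mice by about the same amount, with log2 fold changes of -1.02 ± 0.11 for *Slc7a7* and -1.15 ± 0.10 for *Slc7a8* (largest adjusted p = 9.8e-11). In RGLS4326 vs PBS neither was called: the log2 fold change was 0.26 for *Slc7a7* (95% interval 0.04 to 0.48, adjusted p = 0.0604) and 0.24 for *Slc7a8* (0.03 to 0.45, adjusted p = 0.0729). Exons of *Slc7a7* overlapped 232 bases of *Oxa1l* on the opposite strand, whose group means were 75.6 CPM in UNT, 69.5 in PBS and 60.3 in RGLS4326.

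*Slc3a2*, the CD98hc heavy chain of both, is made in most cell types and changed least. It ranged from 231 to 316 CPM with a median of 269 in UNT mice, from 159 to 195 with a median of 167 in PBS-treated mice and from 147 to 213 with a median of 171 in RGLS4326-treated mice. The *Pkd2*-KO groups lay on top of each other below the UNT mice. The log2 fold change was -0.65 ± 0.06 in PBS vs UNT (adjusted p = 8.8e-12) and 0.02 ± 0.06 in RGLS4326 vs PBS (adjusted p = 0.865), with a 95% interval of -0.11 to 0.14.

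Treatment with RGLS4326 was thus accompanied by higher mRNA of 6 of the 10 transporters: *Slc6a18*, *Slc6a19*, *Slc6a20b*, *Slc3a1*, *Slc7a9* and *Slc1a1*. These calls come from a fit in which the 3 groups share 1 estimate of spread per gene. The spread was unequal, with a median SD of log2(CPM + 1) over the 10 of 0.57 in PBS, 0.24 in RGLS4326 and 0.19 in UNT mice. The SE of a contrast with the PBS group can therefore be too small. The count depended on the fit: *Slc6a18* was called in 10 of the 22 fits that each left out 1 mouse, 4 of the 10 were called with only both groups in the fit, and 0 of the 10 with the percentage of unassigned reads in the model. In both of these fits the fold changes of the 6 moved little. With only both groups in the fit the calls of *Slc6a18* and *Slc1a1* were lost at log2 fold changes of 0.38 and 0.45, the values of the fit over all groups. With the percentage in the model the 6 lay between 0.33 and 0.82. Within numbering sets 1, 2 and 3 alone 0 of the 10 were called and the fold changes differed widely, with log2 values of 0.96, 0.09 and 0.46 for *Slc3a1* and 0.72, 0.12 and 0.38 for *Slc7a9*. Of all tested genes, 33.8% were called in RGLS4326 vs PBS, 15.3% as higher. The called differences ran from 1.30-fold for *Slc6a18* to 1.70-fold for *Slc6a19*, and the other 4 genes, *Slc3a2*, *Slc7a7*, *Slc7a8* and *Slc7a13*, were not called. The median log2 fold change was 0.38 over the 10 and 0.00 over all tested genes. For none of the 10 were the groups without overlap, against 0.0639% of all genes. Both comparisons use the same PBS-treated mice, so their opposite signs are not independent of each other.

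**Figure D2:**
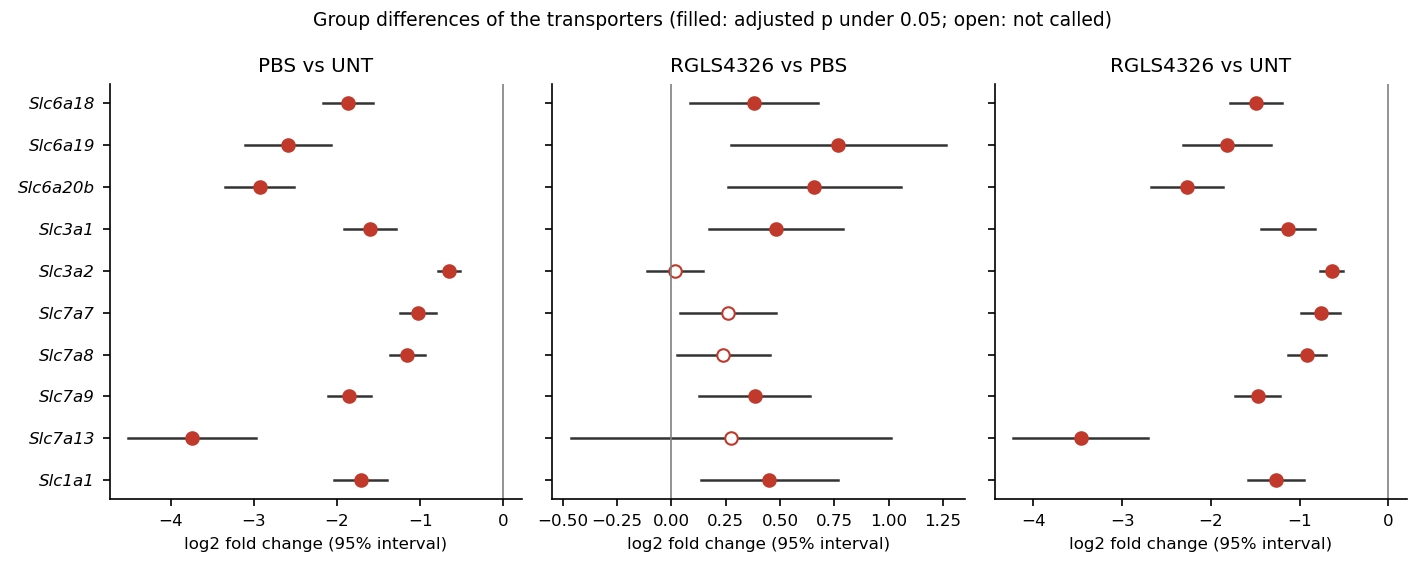
Log2 fold change of each transporter with its 95% interval in PBS vs UNT, RGLS4326 vs PBS and RGLS4326 vs UNT, each panel on its own horizontal scale; filled points passed an adjusted p of 0.05 and open points did not. All 10 points are filled below 0 in both panels against UNT, and 6 are filled above 0 in the treatment panel.

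The treated kidneys remained far from the UNT level. In RGLS4326 vs UNT all 10 transporters were lower, called and without overlap between the groups, with log2 fold changes from -0.64 ± 0.06 for *Slc3a2* to -3.47 ± 0.37 for *Slc7a13* and a median of -1.37. Of all tested genes, 77.7% were called in this comparison, 36.9% as lower, and 16.1% were lower without overlap. *Slc6a20b* was still 4.83-fold lower than in UNT mice and *Slc6a19* 3.53-fold lower, against 7.62-fold and 6.01-fold in PBS-treated mice.

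The SD of log2(CPM + 1) was larger in the PBS group than in the RGLS4326 group for 9 of the 10 transporters, the exception being *Slc3a2*, with medians of 0.57 in PBS, 0.24 in RGLS4326 and 0.19 in UNT mice. Of all tested genes it was larger in the PBS group for 55.3%, with medians of 0.20, 0.19 and 0.17. The values were close for *Slc7a7* (0.29 and 0.27) and *Slc7a13* (0.95 and 0.81), and no test of the spread was run. Low values of several transporters often stood in the same PBS-treated mice. PBS replicates 2, 3 and 11 were among the lowest 3 of their group for 8, 7 and 6 of the 10 genes, and PBS replicate 8 was among the highest 3 for all 10. The summed CPM of the 10 genes was 722, 778 and 881 in the first of these mice and 1708 in replicate 8, against 1132 to 1656 in the RGLS4326 group. PBS replicates 4 and 9 were also low, with sums of 898 and 909 CPM against 1179 in the next mouse, and replicate 4 was the lowest of its group for *Slc6a19*, *Slc6a20b* and *Slc7a13*. In the RGLS4326 group replicates 5 and 7 were among the lowest 3 for 9 of the 10 genes each, with sums of 1265 and 1132 CPM.

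Marker sums of the same mice are given beside these values. The 17 proximal tubule markers summed to 2565, 2736 and 3032 CPM in PBS replicates 2, 3 and 11 and to 7427 in replicate 8, and the 7 tested leukocyte markers to 1380, 1315 and 1198 CPM and to 547 in replicate 8. The injured tubule markers summed to 3335, 2959 and 3340 CPM in the first of these mice and to 1634 in replicate 8. PBS replicates 4 and 9 had proximal tubule sums of 2567 and 4454 CPM, leukocyte sums of 1116 and 1703 and injured tubule sums of 3259 and 3296, the leukocyte sum of replicate 9 being the highest of its group. RGLS4326 replicates 5 and 7 had proximal tubule sums of 5347 and 4890 CPM, leukocyte sums of 879 and 915 and injured tubule sums of 1556 and 1606. The order was not the same throughout: PBS replicate 7 had the highest proximal tubule sum of its group, 8662 CPM, at a transporter sum of 1519, and PBS replicate 10 had a leukocyte sum of 1184 CPM at a transporter sum of 1179. By group the proximal tubule markers summed to 33210 to 45920 CPM in UNT, 2565 to 8662 in PBS-treated and 4890 to 8592 in RGLS4326-treated mice, with none of the 17 at 0. Of these markers 16 were lower and 1, *Cyp7b1*, higher in PBS vs UNT, with a median log2 fold change of -2.68, and 7 were higher and none lower in RGLS4326 vs PBS, with a median of 0.51. *Slc34a1*, the phosphate carrier of the brush border, changed by -2.87 ± 0.20 and 0.64 ± 0.19 in these comparisons and *Lrp2*, the endocytic receptor megalin, by -2.59 ± 0.19 and 0.64 ± 0.18. Markers of other nephron segments were lower in PBS vs UNT too: 4 of 4 for the distal tubule, 3 of 4 for the thick ascending limb and 4 of 5 for podocytes, with 1 marker of each of the latter lists higher. In RGLS4326 vs PBS 2 of 4 distal tubule markers were higher and none lower, 2 of 4 thick ascending limb markers were higher and 1 lower, and 4 of 5 podocyte markers were higher and none lower. Beside these counts, 82.1% of all genes were called in PBS vs UNT, 39.0% as lower, and 33.8% in RGLS4326 vs PBS, 15.3% as higher. The part of these markers in the differences of the transporters was not tested.

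Leukocyte, fibroblast and injured tubule markers were mostly higher in PBS vs UNT, and those of the collecting duct and the endothelium were mixed. Of the 7 tested leukocyte markers 6 were higher in PBS vs UNT, from summed values of 85.1 to 137 CPM to 547 to 1703 CPM, and 3 were lower in RGLS4326 vs PBS, where the sum ranged from 532 to 1091 CPM. All 6 fibroblast markers and all 6 injured tubule markers were higher in PBS vs UNT, and 1 fibroblast marker was higher and 3 injured tubule markers were lower in RGLS4326 vs PBS. Injured tubule markers summed to 171 to 236 CPM in UNT, 1634 to 3340 in PBS-treated and 984 to 2454 in RGLS4326-treated mice, with none at 0. Of the 8 markers of the collecting duct, a segment in which the *Pkhd1* promoter is active, 5 were higher and 3 lower in PBS vs UNT. The higher ones were *Aqp2*, *Aqp3*, *Avpr2*, *Scnn1b* and *Scnn1g*, and the lower ones *Atp6v1g3*, *Slc4a1* and *Slc26a4*. In RGLS4326 vs PBS none of the 8 was higher and 3 were lower, with a median log2 fold change of -0.33. These 3 were *Aqp2*, *Avpr2* and *Scnn1b*, all higher in PBS vs UNT. Of the 5 endothelial markers 2 were higher and 3 lower in PBS vs UNT, and 4 were higher and none lower in RGLS4326 vs PBS. Again 82.1% of all genes were called in PBS vs UNT and 33.8% in RGLS4326 vs PBS. The part of the markers of this paragraph in the transporter differences was not tested.

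Within each of the 3 numbering sets alone all 10 transporters were lower and called in PBS vs UNT and in RGLS4326 vs UNT. Of all genes tested, 11408 of 15737 were called in PBS vs UNT in set 1, 11389 of 15944 in set 2 and 10153 of 15676 in set 3, and 11145, 10235 and 8743 in RGLS4326 vs UNT. The sizes varied between sets, with a median log2 fold change of the 10 in PBS vs UNT of -2.06, -1.60 and -1.84 and values for *Slc7a13* from -4.42 ± 0.66 to -3.28 ± 0.61 (SE). The difference between sets was not tested. RGLS4326 vs PBS differed in size between the sets: the median log2 fold change of the 10 was 0.85 in set 1, 0.11 in set 2 and 0.32 in set 3, with 10, 8 and 9 of the 10 above 0. None was called within a set alone, where 3 or 4 mice stood against 3 or 4 and 54, 4065 and 0 of all genes were called. With the set as a covariate over all mice the same number, 6, was called, and 5859 of all 15644 genes. When the percentage of unassigned reads (those in no gene) entered the model, 0 of the 10 and 89 of all genes were called. The log2 fold changes of the 10 were all above 0. Of the 6 genes called without it, most were about as large: 0.82 against 0.77 for *Slc6a19*, 0.52 against 0.48 for *Slc3a1*, 0.48 against 0.45 for *Slc1a1* and 0.40 against 0.38 for *Slc7a9*. Values were lower for *Slc6a20b* (0.56 against 0.66) and *Slc6a18* (0.33 against 0.38). *Slc3a2*, not called in either fit, was higher with it, at 0.13 against 0.02.

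**Figure D3:**
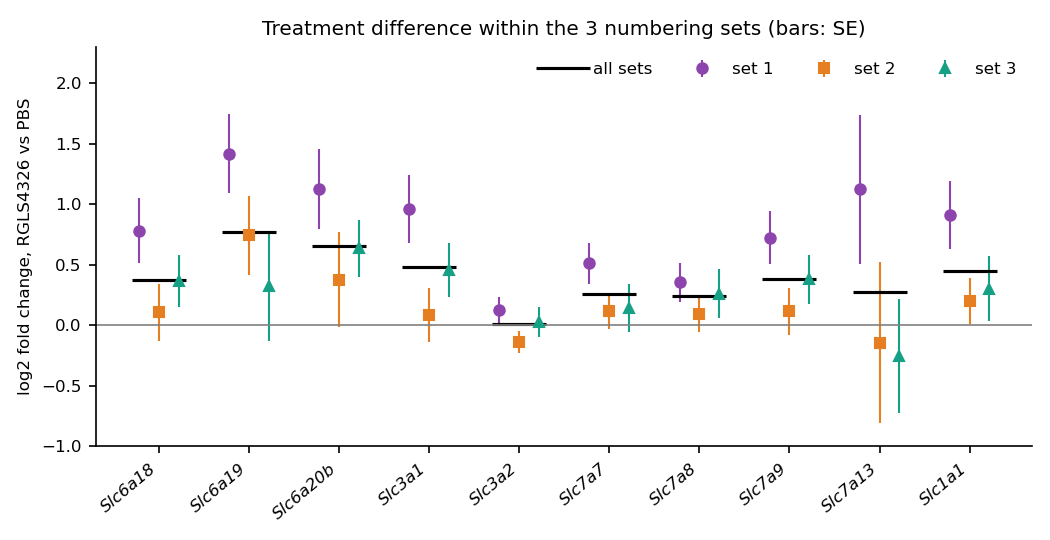
Log2 fold change of RGLS4326 vs PBS for each transporter in numbering sets 1, 2 and 3 separately (points, with SE) and over all sets (horizontal lines). Set 1 lies above the other sets for all 10 genes, and *Slc7a13* has the widest error bars.

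Leaving out any 1 of the 22 *Pkd2*-KO mice left between 4 and 8 of the 10 transporters called in RGLS4326 vs PBS, and between 4023 and 6209 of all genes. *Slc6a19*, *Slc6a20b*, *Slc3a1* and *Slc7a9* were called in all 22 cases. *Slc1a1* was called in 20 and was lost without PBS replicate 4 or 11 (highest adjusted p = 0.0536), and *Slc6a18* was called in 10. In turn, *Slc7a7* was called in 4 cases and *Slc7a8* in 2, those without PBS replicate 1 or 8.

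Levels of different genes were compared per kilobase of annotated exon. In UNT mice *Slc3a1* was highest, at 372 ± 40.1 CPM per kb (SD, n = 12), and *Slc6a18* followed at 229 ± 33.6, each above the next gene in all 12 mice. *Slc3a2* and *Slc7a9*, at 77.4 ± 7.87 and 75.6 ± 9.98, did not differ beyond their spread (*Slc3a2* was higher in 7 of 12 mice), nor did *Slc6a19* at 56.0 ± 24.5, *Slc7a7* at 53.2 ± 8.97 and *Slc7a8* at 49.0 ± 8.52. Below them came *Slc1a1* at 37.3 ± 2.74, *Slc7a13* at 34.1 ± 13.2, which was lower in 8 of 12 mice, and *Slc6a20b* at 25.1 ± 2.51 CPM per kb. Annotated exons include rarely used ones, so these values set the order only roughly.

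The order was rearranged in the *Pkd2*-KO kidneys. *Slc3a1* stayed highest, at 122 ± 47.6 in PBS-treated and 170.1 ± 28.4 CPM per kb in RGLS4326-treated mice (n = 11 each). *Slc7a9*, above the basolateral *Slc7a7* in UNT mice, stood below it at 20.9 ± 6.33 against 26.1 ± 5.31 in PBS-treated mice. *Slc6a19*, which was above *Slc7a7* in only 5 of 12 UNT mice, stood at 9.30 ± 5.13. *Slc7a13* had the lowest mean, at 2.54 ± 1.70 in PBS-treated and 3.04 ± 2.58 CPM per kb in RGLS4326-treated mice. In the PBS group it did not differ beyond its spread from *Slc6a20b*, which at 3.29 ± 1.67 was higher in 8 of 11 mice. In the PBS group *Slc6a18* and *Slc3a2*, at 62.7 ± 23.8 and 49.2 ± 3.64, did not differ beyond their spread, with *Slc6a18* higher in 7 of 11 mice, whereas it was higher in all 11 RGLS4326-treated mice.

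Ratios of counts within a mouse do not depend on library scaling and ask whether paired genes were lost in proportion. The log2 ratio of 6 pairs was compared in all 3 contrasts by two-sided permutation tests with 100000 resamples, and 11 of the 18 comparisons had an adjusted p under 0.05. The smallest p these permutations can give is 2e-05. The sign of each of these 11 was the same in all 3 numbering sets. Ratios of other gene pairs were not compared. How often an arbitrary pair would differ, or show no overlap between groups, is therefore not known. Of all tested genes, 82.1% were called in PBS vs UNT, 33.8% in RGLS4326 vs PBS and 77.7% in RGLS4326 vs UNT. The count of 11 thus does not set these pairs apart from other pairs.

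The 2 light chains of rBAT parted. The log2 ratio of *Slc3a1* to *Slc7a13* ranged from 2.38 to 4.27 in UNT and from 4.43 to 7.76 in PBS-treated mice, with no overlap, and its mean rose by 2.37 (permutation p = 2e-05, adjusted p = 9e-05). The ratio of *Slc3a1* to *Slc7a9*, by contrast, had means (± SD) of 2.06 ± 0.14 in 12 UNT mice, 2.27 ± 0.28 in 11 mice given PBS and 2.39 ± 0.14 in 11 given RGLS4326, and differed in RGLS4326 vs UNT by 0.33 (permutation test, adjusted p = 0.0003) with an adjusted p of 0.0558 in PBS vs UNT by the same permutation test.

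Relative to both of its light chains the heavy chain CD98hc was higher in PBS-treated than in UNT mice and lower in RGLS4326-treated than in PBS-treated mice. The log2 ratio of *Slc3a2* to *Slc7a8* ranged from -0.08 to 0.44 in UNT, 0.34 to 1.11 in PBS-treated and 0.25 to 0.66 in RGLS4326-treated mice. The PBS mean exceeded the UNT mean by 0.51 (permutation test, adjusted p = 0.000216) and the RGLS4326 mean differed from the PBS mean by -0.24 (adjusted p = 0.021), with all 11 RGLS4326-treated mice below the PBS mean. It was still above the UNT mean under RGLS4326, by 0.27 (permutation test, adjusted p = 0.00081), with all 11 mice above that mean. For *Slc3a2* to *Slc7a7* the differences were 0.38 (permutation test, adjusted p = 0.00081) and -0.26 (adjusted p = 0.021), with 2 of 11 RGLS4326-treated mice above the PBS mean. Its difference of 0.13 in RGLS4326 vs UNT was not called (permutation test, adjusted p = 0.129). On its own a change in the ratio shows that the 2 genes did not change in proportion and not which of them moved. In RGLS4326 vs PBS the log2 fold change was 0.02 for *Slc3a2*, 0.24 for *Slc7a8* and 0.26 for *Slc7a7*, none of them called.

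**Figure D4:**
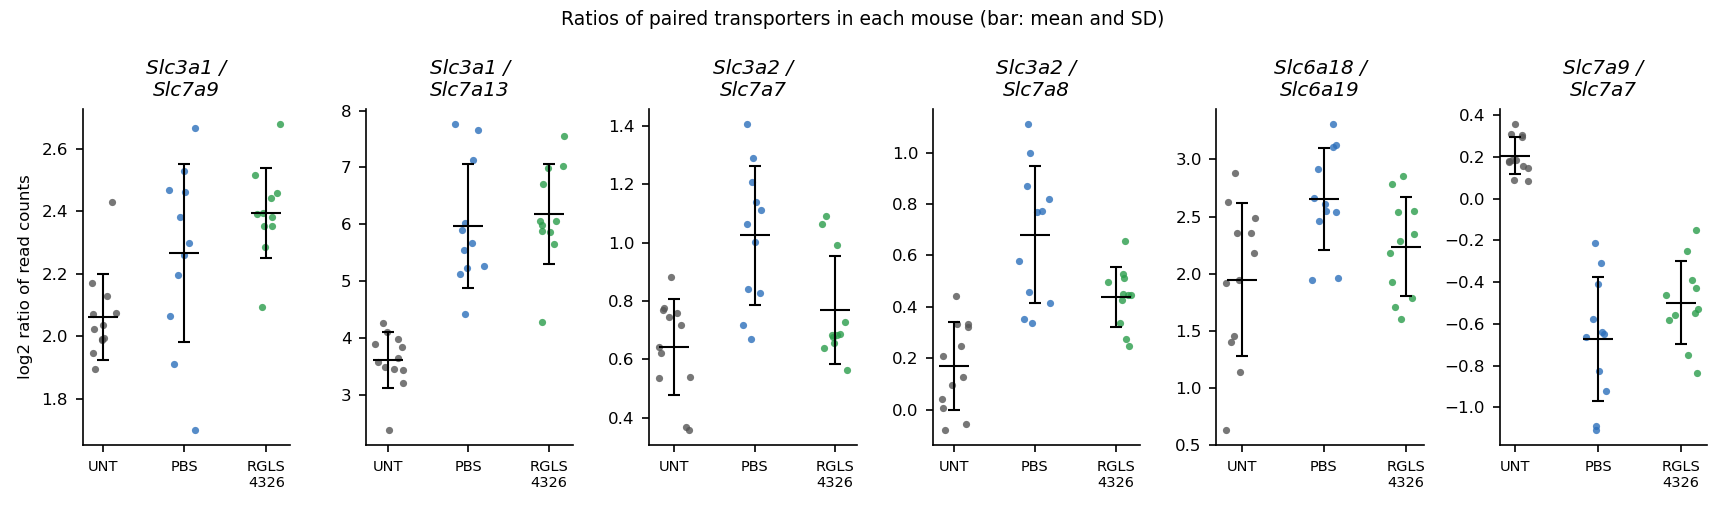
Log2 ratio of read counts of 6 gene pairs in every mouse, with the mean and SD of each group; each panel has its own vertical scale. The *Slc3a1* / *Slc7a13* ratio separates UNT from both *Pkd2*-KO groups, as does *Slc7a9* / *Slc7a7* in the opposite direction, and *Slc3a2* / *Slc7a8* is highest in the PBS group.

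In whole kidney RNA *Slc7a9*, the apical light chain, was lowered more than *Slc7a7*, the basolateral one. Which cells the reads of either gene came from was not tested. The log2 ratio of *Slc7a9* to *Slc7a7* ranged from 0.08 to 0.36 in UNT, from -1.11 to -0.21 in PBS-treated and from -0.83 to -0.15 in RGLS4326-treated mice, without overlap between UNT and either *Pkd2*-KO group, and its mean differed by -0.88 in PBS vs UNT (permutation p = 2e-05, adjusted p = 9e-05). Between RGLS4326 and PBS it differed by 0.17 (permutation test, adjusted p = 0.141). For the neighbouring genes *Slc6a18* and *Slc6a19* the ratio was higher in PBS than in UNT mice by 0.71 (permutation test, adjusted p = 0.0143), and its difference of -0.42 in RGLS4326 vs PBS was not called (adjusted p = 0.0558).

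Several transporters of the mouse kidney are known to differ between males and females, *Slc7a13* among them. Mice were therefore split by *Ddx3y*, a gene of the Y chromosome, at 1 CPM, above which lay 6 of 12 mice in the UNT group, 6 of 11 in the PBS group and 5 of 11 in the RGLS4326 group. With the group in the model none of the 10 transporters was called for this term, as against 0.224% of all genes (35). *Slc7a13* was 0.55 ± 0.27 higher on the log2 scale in those mice (adjusted p = 0.501), and the other 9 were lower, *Slc7a8* by the largest amount with a difference of -0.24 ± 0.08 (unadjusted p = 0.00305, adjusted p = 0.286). No interaction of this split with a contrast was called for any of the 10 (lowest adjusted p = 0.621). That does not show that the contrasts were alike in both sets of mice: the interaction of *Slc6a19* in PBS vs UNT was -0.92 ± 0.46 on the log2 scale (SE; edgeR, unadjusted p = 0.0529). Of all genes the interaction was called for 0.00639% of all genes in PBS vs UNT, 0.0% in RGLS4326 vs PBS and 0.0256% in RGLS4326 vs UNT.

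Deviations from the group mean showed which genes varied with each transporter from mouse to mouse. Over the 34 libraries, in which genes of a library share its depth and cell content, the Pearson correlation of group-centred log2(CPM + 1) was highest between *Slc6a20b* and *Slc34a1* (0.96) and *Agxt2* (0.96), between *Slc3a1* and *Mep1a* (0.95) and *Abat* (0.95), between *Slc1a1* and *Slc23a1* (0.95), between *Slc6a18* and *Slc6a13* (0.94) and *Lrp2* (0.91), and between *Slc7a9* and *Pbld1* (0.93) and *Slc23a1* (0.91). For the others it was lower, with *Asl* (0.88) and *Folr1* (0.77) for *Slc7a7*, *Sh3bp5* (0.85) and *Wdr31* (0.84) for *Slc6a19*, *Tspan18* (0.83) and *Lzts3* (0.81) for *Slc7a8*, *Foxo4* (0.81) and *Fbxo21* (0.79) for *Slc3a2*, and *Xylb* (0.79) and *BC021785* (0.75) for *Slc7a13*. Within the 10, *Slc3a1* and *Slc1a1* were most alike (0.94) and *Slc3a2* and *Slc7a13* least (0.01). These values describe the libraries and carry no test.

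Of 9 tested accessory genes and regulators, 8 were lower and 1 higher in PBS vs UNT, where 82.1% of all genes were called and 39.0% were lower. In RGLS4326 vs PBS 3 were higher and 1 lower, where 33.8% of all genes were called and 15.3% were higher. *Tmem27* (collectrin), which brings B0AT1 and B0AT3 to the membrane, had a mean of 938 ± 188 CPM (SD, n = 12) in the UNT group, 182 ± 57.3 (n = 11) in the PBS group and 253 ± 39.6 CPM (n = 11) with RGLS4326, a log2 fold change of -2.36 ± 0.14 and then 0.48 ± 0.14 (adjusted p = 0.0112). *Pdzk1*, a scaffold of the brush border, changed by -2.36 ± 0.16 and 0.43 ± 0.16 (adjusted p = 0.0337).

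The brush border peptidases split. *Enpep*, an aminopeptidase for acidic residues, changed by -1.57 ± 0.13 on the log2 scale in PBS vs UNT and by 0.48 ± 0.13 in RGLS4326 vs PBS (adjusted p = 0.00837), whereas *Anpep*, the aminopeptidase for neutral residues, changed by -1.04 ± 0.08 and by 0.01 ± 0.08 (adjusted p = 0.968). The scaffold *Slc9a3r1* changed by -0.76 ± 0.08 and by -0.11 ± 0.08 (adjusted p = 0.289).

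*Hnf4a*, a transcription factor of the proximal tubule, changed by -1.49 ± 0.13 on the log2 scale in PBS vs UNT and by 0.28 ± 0.13 in RGLS4326 vs PBS (adjusted p = 0.0844).

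*Hnf4a* was thus lower in PBS vs UNT, as were 39.0% of all genes, and was not called in RGLS4326 vs PBS. Promoter windows of RefSeq (GRCm38.p6, 250 bases before to 50 after each start) were searched on both strands for letters of the HNF4 site, for 8 of the 10 genes, without *Slc6a18* and *Slc7a13*. The motifs were written after the expression values were seen. The HNF4 site CAAAGTCCA occurred in 0.47% of all 32851 windows, and the HNF4 core CAAAG, which is the start of that site, in 53.9%. Of the 13 windows of the 8 genes 9 held the core, none of them in *Slc6a19* or *Slc1a1*, but windows of *Slc7a7* overlap in part, as do those of *Slc7a9*, where a single core was counted in both windows. The HNF4 site was found once in the 13, shown here in capitals with the bases around it, 5′ to 3′ on the strand of the gene.
Slc3a1, HNF4 site, chr17:85028308-85028316, plus strand: tggctggaCAAAGTCCAgccatgat
The HNF4 site of *Slc3a1* began 39 bases before its start. This is a match of letters and not observed binding.

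Of 42 other amino acid transporters tested, 20 were higher and 20 lower in PBS vs UNT, with a median log2 fold change of -0.05, where 82.1% of all genes were called and 39.0% were lower. In RGLS4326 vs PBS 10 were higher and 6 lower, where 33.8% of all genes were called and 15.3% were higher. The difference between these 42 and the 10 was not tested. Light chains that also pair with CD98hc were among those that rose: *Slc7a5* (LAT1), the exchanger of growing cells, went from 5.04 ± 0.94 CPM (SD, n = 12) to 30.3 ± 5.80 (n = 11), a log2 fold change of 2.59 ± 0.13, and *Slc7a6* (y+LAT2) from 17.4 ± 1.86 to 36.7 ± 3.86 CPM, a log2 fold change of 1.07 ± 0.06. With RGLS4326 *Slc7a5* was 23.8 ± 5.43 CPM, a log2 fold change of -0.34 ± 0.12 against PBS (adjusted p = 0.0282). *Slc7a5* and *Slc7a6* thus rose in the same kidneys in which the tubular partners *Slc7a7* and *Slc7a8* fell.

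*Slc7a1*, the widely made carrier of cationic amino acids, rose from 20.1 ± 1.46 to 109 ± 22.7 CPM in PBS vs UNT, a log2 fold change of 2.45 ± 0.09, and differed by -0.23 ± 0.09 in RGLS4326 vs PBS (adjusted p = 0.0385). The sodium-coupled carriers *Slc38a4* and *Slc38a1* rose by 2.0 ± 0.10 and 1.37 ± 0.08 on the log2 scale. *Slc36a1*, a proton-coupled carrier, fell from 115 ± 16.3 to 44.8 ± 6.22 CPM, a log2 fold change of -1.36 ± 0.08, and was 60.5 ± 8.12 CPM with RGLS4326 (log2 fold change 0.43 ± 0.08, adjusted p = 0.00131).

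**Figure D5:**
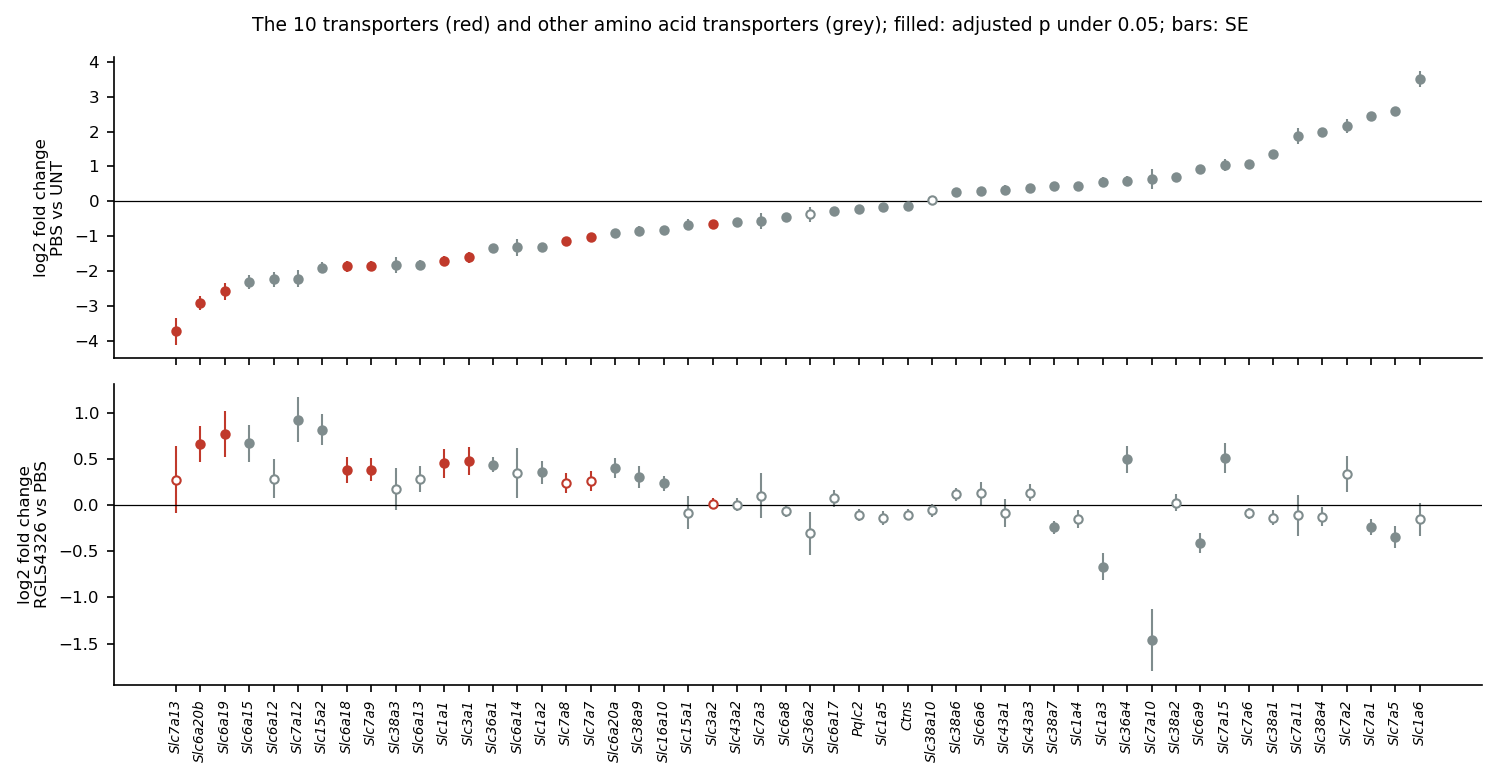
Log2 fold change (with SE) of the 10 transporters (red) and 42 other amino acid transporters (grey), ordered by PBS vs UNT, in that comparison and in RGLS4326 vs PBS; filled points have an adjusted p under 0.05. All 10 red points lie below 0 in the upper panel, while grey points run from -2.32 to 3.51.

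Of the others that differed most clearly between RGLS4326 and PBS, *Slc15a2*, a peptide carrier of the late proximal tubule, had a log2 fold change of 0.81 ± 0.17 (adjusted p = 0.00192) after -1.91 ± 0.17 in PBS vs UNT, and *Slc7a12* 0.92 ± 0.24 (adjusted p = 0.00715) after -2.22 ± 0.25. In the opposite direction went *Slc1a3*, a glutamate carrier, with -0.67 ± 0.14 (adjusted p = 0.00258) after 0.56 ± 0.14, and *Slc6a9*, a glycine carrier, with -0.41 ± 0.11 (adjusted p = 0.00718) after 0.93 ± 0.11. *Slc7a10* had a log2 fold change of -1.46 ± 0.34 (adjusted p = 0.00354) at group means of at most 1.15 CPM.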

How the data were processed

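Whole kidney mRNA was measured in 34 mice. The authors prepared stranded polyadenylated libraries, sequenced them as 75-base paired ends, trimmed reads with Trim Galore, mapped them with STAR to GRCm38 (mm10) and counted uniquely mapped reads with HTSeq (version 0.6.1, from the submitters' processing notes). The authors deposited, for every mouse, 1 table of gene symbols with unnormalized counts, and no mice were pooled. The annotation and whether counting used strand are not given in the sources used here, so genes that overlap on opposite strands were treated as uncertain. The totals of reads in no gene, ambiguous (0.323 to 0.488%) or not unique (14.8 to 25.7%) stayed out of library sizes. The share not unique was 22.8 to 25.7% in UNT, 14.8 to 19.4% in PBS-treated and 14.8 to 19.1% in RGLS4326-treated libraries. It thus separated UNT from both other groups. No libraries were identical (0 pairs).

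Groups came from the labels. Counts of all 34 libraries were fitted together with edgeR (version 4.0.16, R 4.3.3; TMM, filterByExpr, glmQLFTest, 3 groups, no covariate). SE and 95% intervals come from that fit. Ratios used counts plus 0.5. Python 3.11.15 with pandas 2.3.3 and scipy 1.17.1 served for the rest. Positions, exon lengths and 3′UTRs came from GENCODE M21 on GRCm38. In simulated counts for RGLS4326 vs PBS over 15644 genes, 93 of 100 genes changed by a log2 fold change of 1 and 75 of 100 changed by 0.5 were recovered, with 4 false calls. These counts were drawn independently for each gene and mouse, with the same spread in all groups and PBS means for all but the changed genes. The simulation therefore does not give the rate of false calls in the data, where groups differ in spread. Alternatives were DESeq2 (version 1.42.0), other normalizations, no filter, fewer groups, covariates, single numbering sets and, added after seeing the data, leaving out single mice.

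The transporters and gene lists were chosen with earlier results of these data known. All 10 transporters are named. Of the other transporters those with the 6 smallest p in PBS vs UNT and in RGLS4326 vs PBS are named, together with the tested accessory genes and regulators and, per transporter, the 2 genes most like it; some of these are not reported here. *Slc6a20a* and the markers were named in addition, as relative or context. Mice are the replicates, and with littermates unknown p-values measure the spread between these mice.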

Additional observations from a re-analysis of the deposited data

How the results depend on the processing

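All 10 transporters stayed lower and called in PBS vs UNT and in RGLS4326 vs UNT under each of 13 alternatives. Library totals in place of TMM moved the median log2 fold change of all genes to 0.33 in both, with the 10 transporters from -3.43 to -0.36 and from -3.15 to -0.34. The value nearest 0 was that of *Slc3a2* in both, which in PBS vs UNT was -0.36 against -0.65 with TMM. In RGLS4326 vs PBS the number called was 0 in numbering sets 1, 2 and 3 alone and 0 with the percentage of unassigned reads in the model, and 4 with only both groups in the fit, where *Slc6a18* and *Slc1a1* were lost at unchanged log2 fold changes of 0.38 and 0.45. Without single mice it ranged from 4 to 8. The sign of the *Slc3a2* difference turned in set 2 (-0.14) and without RGLS4326 replicate 4 (-0.0158) or 8 (-0.0035), with values without single mice of at most 0.0387, and that of *Slc7a13* in set 2 (-0.14), in set 3 (-0.25) and without RGLS4326 replicate 3 (-0.13, against at most 0.431 without another mouse). With the set as a covariate, interactions with *Ddx3y* turned for *Slc7a13* in PBS vs UNT (0.0158) and for *Slc7a7* (0.013) and *Slc7a9* (-0.0197) in RGLS4326 vs UNT; none was called. The causes were not tested. Deviations of same-numbered mice of different groups had correlations of -0.41 to 0.45 (33 pairs, median -0.02, 10 above 0.1). Differently numbered mice were not compared, so these values cannot show whether the numbers pair the mice. With the replicate number as a block, 10, 6 and 10 transporters and 12781, 5098 and 12162 genes were called in PBS vs UNT, RGLS4326 vs PBS and RGLS4326 vs UNT.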

Other observations

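The transcription factor ATF4 drives a response to amino acid shortage. Of 8 listed genes of that response, 6 were higher, none lower and 2 not called in PBS vs UNT, where 82.1% of all genes were called in either direction. In RGLS4326 vs PBS 4 were lower, none higher and 4 not called, where 33.8% of all genes were called in either direction. Both comparisons share the PBS-treated mice. *Asns*, which makes asparagine, averaged 4.48 ± 0.75 CPM (SD) in 12 UNT mice, 21.9 ± 5.17 in 11 mice given PBS and 14.4 ± 2.21 in 11 given RGLS4326, with log2 fold changes of 2.28 ± 0.12 (SE) and -0.60 ± 0.11 (edgeR, adjusted p = 0.00119). *Phgdh*, the entry to serine synthesis, went from 20.4 ± 2.20 to 67.8 ± 14.2 and 46.7 ± 12.3 CPM, with 1.73 ± 0.12 and -0.54 ± 0.12 (adjusted p = 0.003). *Chac1*, which breaks down glutathione, and *Atf4* itself were the other 2 that fell with RGLS4326, with log2 fold changes of -0.79 ± 0.20 and -0.28 ± 0.09. *Ddit3* and *Sesn2* were not called in either comparison. The genes named here were chosen after their values were seen.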
